A study of Mus musculus with 24 samples.

Results

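Transcripts of 10 CC chemokine genes, Ccl2, Ccl3, Ccl4, Ccl5, Ccl6, Ccl7, Ccl9, Ccl12, Ccl17 and Ccl22, were followed in mouse alveolar macrophages through postnatal life, with and without a bacterial stimulus. They were taken by gene symbol as the CC chemokines to be described, 10 of the 56691 genes of the deposited table, and each symbol matched 1 gene identifier. Bulk RNA was sequenced from macrophages lavaged from mouse lungs 1, 3, 7, 21 or 49 days after birth, ages written D1 to D49. The cells were kept for 4 h with lipopolysaccharide of E. coli (LPS, 400 ng/mL), or for the same time in medium free of LPS (control). The 24 libraries form 10 groups: with LPS, 3 libraries at D1 and 2 at each later age, and without it, 2 at D1, 3 at D3, 2 at D7, 3 at D21 and 3 at D49.

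Cells of all groups were plated, and the labels give no difference between control and LPS groups of an age other than LPS. Each library holds pooled mice, 3 to 6 per time point by the series' design text and 3 to 5 by the sample records. Strain, sex and genotype are not stated. The labels do not say that replicates of a group came from separate animals. Each p-value therefore sets a difference only against the spread among the samples fitted, for the main tests that of all 10 groups together. That spread may be technical. In bulk RNA, fewer cells of a type and less RNA per cell cannot be told apart.

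CC chemokines are small secreted proteins with a pair of adjacent cysteines near the amino terminus, and they attract leukocytes through G protein-coupled receptors of the CCR family. In the lung, alveolar macrophages sense LPS through Toll-like receptor 4 with CD14, and their chemokines help to call monocytes, neutrophils and lymphocytes into the airspace. Ccl2, Ccl7 and Ccl12 act on CCR2 of monocytes, Ccl3, Ccl5 and, in rodents, Ccl6 and Ccl9 on CCR1, and Ccl17 and Ccl22 on CCR4 of T cells.

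In the GENCODE M21 annotation, 8 of the 10 genes lie on chromosome 11, in the order Ccl2, Ccl7, Ccl12, Ccl5, Ccl9, Ccl6, Ccl3 and Ccl4, and Ccl22 and Ccl17 lie on chromosome 8. RefSeq promoter sequence (build GRCm38.p6) was at hand for 6 of the 10, and not for Ccl2, Ccl4, Ccl5 and Ccl7. The 250 bases before the annotated start are printed below for 4 of them. Ccl9 and Ccl6 follow each other in the order of CC chemokine genes and had unlike LPS values, Ccl3 is the next in that order with a high level under LPS, and Ccl22 is the member whose level was higher at the late ages. The 3 motifs were searched on both strands: the NF-kB consensus, the AP-1 site TGANTCA, and the core of the interferon-stimulated response element (GAAA, any 2 bases, GAAA). Capitals mark a match, and each line reads 5′ to 3′ on the strand of the gene.
Ccl9 (chr11:83578637-83578886, minus strand): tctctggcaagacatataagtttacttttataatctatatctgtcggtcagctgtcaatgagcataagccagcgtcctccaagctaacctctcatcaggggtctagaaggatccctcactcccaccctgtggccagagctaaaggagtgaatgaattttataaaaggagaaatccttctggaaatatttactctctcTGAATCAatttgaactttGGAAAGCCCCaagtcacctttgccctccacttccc
Ccl6 (chr11:83593088-83593337, minus strand): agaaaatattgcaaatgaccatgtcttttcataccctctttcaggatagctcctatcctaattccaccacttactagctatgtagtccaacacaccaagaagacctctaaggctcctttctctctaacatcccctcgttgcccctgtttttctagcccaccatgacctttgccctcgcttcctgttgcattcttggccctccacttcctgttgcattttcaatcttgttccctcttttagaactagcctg
Ccl3 (chr11:83649379-83649628, minus strand): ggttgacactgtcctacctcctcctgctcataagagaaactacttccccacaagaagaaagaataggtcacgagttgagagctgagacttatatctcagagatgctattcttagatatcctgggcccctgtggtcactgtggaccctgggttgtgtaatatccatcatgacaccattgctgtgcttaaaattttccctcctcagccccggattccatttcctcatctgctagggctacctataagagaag
Ccl22 (chr8:94745434-94745683, plus strand): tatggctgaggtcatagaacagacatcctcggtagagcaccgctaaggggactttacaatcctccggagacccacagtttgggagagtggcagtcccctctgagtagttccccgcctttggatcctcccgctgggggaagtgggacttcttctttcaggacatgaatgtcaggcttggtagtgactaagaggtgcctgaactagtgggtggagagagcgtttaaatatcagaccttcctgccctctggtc
Among the 6 windows only that of Ccl9 held a match. Its AP-1 match, TGAATCA, lay 53 to 47 bases before the start, and its NF-kB consensus match, GGAAAGCCCC, 35 to 26 bases before it, without overlap. Over 32841 RefSeq promoters of the same length, 3.9% held the NF-kB consensus, 6.75% the AP-1 site and 2.98% the interferon element core. A looser NF-kB motif was dropped after its matches were seen, so the NF-kB result holds for the consensus as searched. The marked matches describe letters in a window and nothing about binding.

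Library totals were 15.8 to 23.3 M counts. All 13 alveolar macrophage markers were tested and were above 1 CPM (counts scaled by TMM to a common library size) on average in each group; together they summed to 4649.5 to 43643.7 CPM per library, and Chil3 alone ran from 186.1 to 35546.2 CPM. Of the other cell types, T and NK cell markers summed to 0.0514 to 2.26 CPM, and B cell markers to at most 0.973 CPM. Eosinophil markers summed to 56.3 to 281.7 CPM, carried by Siglecf (17.6 to 258.2 CPM), which alveolar macrophages also express, and Ear6 (15.7 to 56.2 CPM), while Epx was at 0 in all 24 libraries. Neutrophil markers summed to 22.7 to 228.9 CPM, with S100a8 at 13.0 to 201.5 CPM and Ly6g at most 0.191 CPM. Lung epithelial markers summed to 30.1 to 91.4 CPM, with Cdh1 at 13.0 to 52.9, Scgb1a1 at most 37.6 and Sftpc at most 4.66 CPM. Skeletal muscle genes summed to 0.0 to 1.87 CPM in LPS libraries, against 0.0486 to 261.4 CPM in controls. The part of these cells in the chemokine values was not tested. Libraries also differed in GC deviation, a log2 measure of how far GC-rich genes stood above GC-poor ones, which ran from -3.17 to 2.84 and was beyond 1 in absolute value in 10 of 24. The 14 libraries within 1 hold only control library 1 and LPS library 1 at D1 and at D49. Of the D3 LPS group and of the D21 control group they also hold only library 1. A group left with 1 library adds nothing to the spread behind a p-value in the 14 libraries. It was 2.84 and 2.36 in D1 LPS libraries 2 and 3, against 2.28 in D1 control library 2, and -2.08 and -3.17 in D49 control libraries 2 and 3. Exocrine gland transcripts summed to 282.5 to 1321.0 CPM in the LPS libraries of D1, D3 and D7, against 0.234 to 14.2 CPM in their controls. At D21 and D49 they summed to 7.25 to 9.82 CPM in LPS libraries and 1301.3 to 2387.2 CPM in controls. The gland levels moved with the groups, and their part in the chemokine differences was not tested.

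Per length, in FPKM (TMM-scaled CPM over exonic length), the members' make-up differed between treatments. Control macrophages carried mostly Ccl6, and LPS-treated macrophages mostly Ccl3 and Ccl4. With LPS, Ccl3 made up 34.4% to 42.3% of the summed FPKM of the 10 members across the 5 ages and Ccl4 19.5% to 38.7%. Ccl6 held 15.4% to 26.0% with LPS, against 58.6% to 79.1% in controls, where its mean share was 58.6%, 66.1%, 71.4%, 75.5% and 79.1% from D1 to D49. Neighbouring ages overlapped in these control shares, which ran from 49.9% to 67.4% at D1 and from 73.5% to 85.8% at D49. The control level of Ccl6 itself did not climb steadily, at means of 3945.4 CPM at D1, 1268.6 CPM at D7 and 2716.2 CPM at D49. GC deviation also differed between these libraries, and its part in the shares was not tested. Ccl4 in controls had mean shares of 9.40%, 3.79%, 3.31%, 1.08% and 0.87% from D1 to D49, with 4.13% and 14.7% in the D1 libraries. The summed level averaged 12693.3 FPKM in D1 LPS (7559.2 to 15647.4) and 3797.7 FPKM in D1 control libraries (3464.5 to 4130.9). It averaged 4129.6 FPKM in D49 LPS (3577.2 to 4681.9) and 1900.1 FPKM in D49 control libraries (1718.9 to 2200.1). In D1 LPS macrophages, Ccl4 ranked 3 and Ccl3 ranked 6 by mean FPKM among 11774 genes tested, and in D1 controls Ccl6 ranked 12. That Ccl4 mean covers 1610.3 FPKM in D1 LPS library 1 and 7426.9 and 7033.8 FPKM in libraries 2 and 3. The GC deviations of libraries 1, 2 and 3 were 0.28, 2.84 and 2.36. Ccl6 was between rank 12 and rank 31 in controls of every age.

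**Figure D1:**
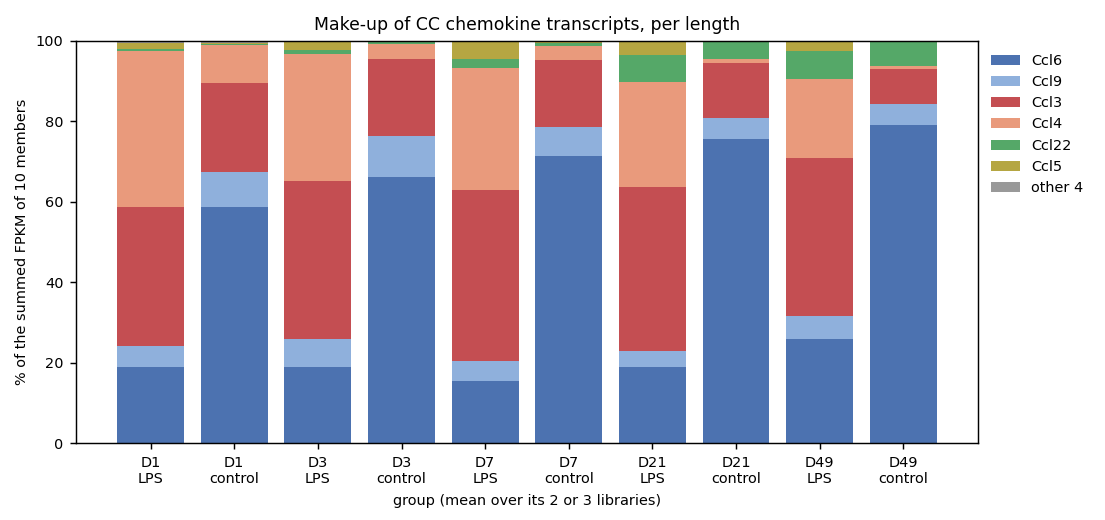
Stacked bars give the mean share of each member in the summed FPKM of the 10 members (y axis, %), for the LPS and control group of each age (x axis, LPS left of control). Ccl6 fills 58.6% to 79.1% of the control bars, and Ccl3 with Ccl4 most of each LPS bar.

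Counts were fitted with edgeR's quasi-likelihood test over the 11774 genes with at least 1 FPKM in 2 or more libraries. Adjusted p-values are Benjamini-Hochberg values over all of them, and a gene passed under 0.05. Fold changes are log2 values ± SE, LPS minus control or D49 minus D1. In all, 9 members were tested, since Ccl12 did not reach the filter.

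LPS raised 6 of the 9 tested members at D1, 7 at D3, 6 at D7, 7 at D21 and 7 at D49, and none fell at any age. Ccl2, Ccl3, Ccl4, Ccl5 and Ccl22 rose at all 5 ages. Ccl7 rose at 4 ages and Ccl9 at 4, while Ccl6 and Ccl17 passed at none. Among all genes tested, 3.74% rose at D1, 4.43% at D3, 5.15% at D7, 6.77% at D21 and 5.24% at D49, and 1.93%, 2.57%, 4.47%, 6.74% and 4.98% fell in the same order. The members' median log2 fold change was 2.53, 2.82, 2.33, 2.91 and 1.68 in order of age, against 0.00, -0.06, 0.02, 0.01 and 0.00 over all genes tested.

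**Figure D2:**
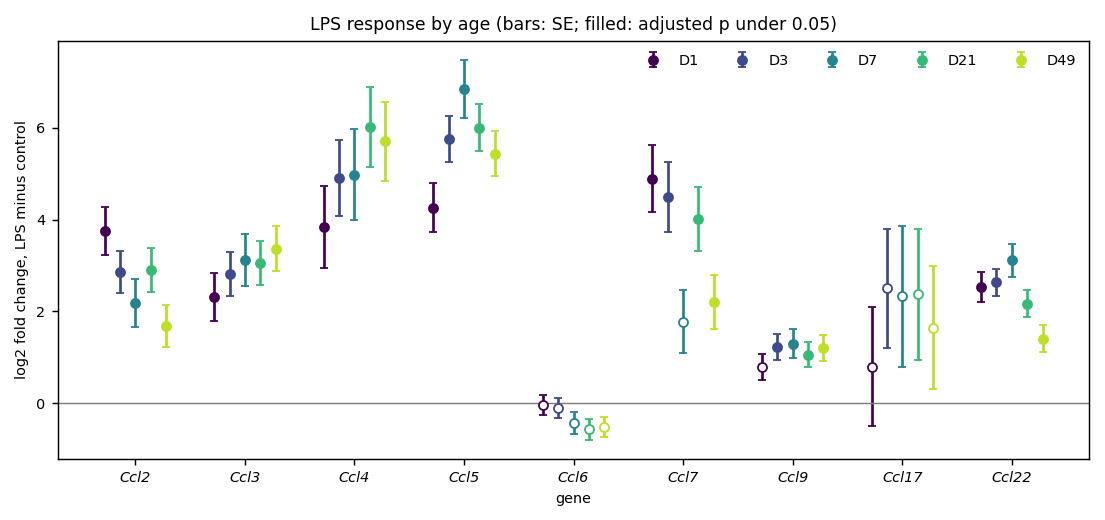
The y axis gives the log2 fold change (LPS minus control) of 9 members, with 1 point per age and bars of 1 SE; filled points passed at an adjusted p under 0.05. Ccl5 reached 6.85 at D7 and Ccl4 6.02 at D21, while Ccl6 lay between -0.57 and -0.04.

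Ccl2, the main monocyte attractant of the family, was a low transcript without LPS and rose at each age. It stood at 43.5, 44.1 and 32.6 CPM in the D1 LPS libraries and at 3.37 and 2.59 CPM in D1 controls. The D3 libraries had 11.1 and 8.72 CPM with LPS, against 1.26, 0.599 and 2.21 CPM in controls. All LPS libraries lay above all controls at both ages, and D1 held the highest level. With LPS the D7 level was 4.45 and 4.36 CPM, against 0.771 and 1.16 CPM in controls. At D21 it was 5.77 and 7.11 CPM, against 1.49, 0.664 and 0.375 CPM in controls, and at D49 8.73 and 9.14 CPM, against 2.13, 2.93 and 3.31 CPM. The groups did not overlap at these ages either. The log2 fold change was 3.75 ± 0.52 at D1 (adjusted p = 0.00018), 2.85 ± 0.46 at D3, 2.18 ± 0.53 at D7 (adjusted p = 0.011), 2.91 ± 0.48 at D21 and 1.68 ± 0.45 at D49 (adjusted p = 0.02). The D21 fold was 3.62 without D21 control library 1 and 2.17 in the 14 libraries. The D7 call ended when any 1 of the 4 D7 libraries was left out (adjusted p 0.051 to 0.15), and the D49 call without D49 LPS library 1 (0.086), without D49 LPS library 2 (0.14) and in the D49 libraries alone (0.17). With LPS the order of ages was D1, D3, D49, D21 and D7, of which only D3 and D49 overlapped as neighbours; in controls every pair of neighbours in the order overlapped.

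Ccl7, another CCR2 ligand, was rarer still. It had 13.1, 9.08 and 8.24 CPM in D1 LPS libraries and 0.281 and 0.386 CPM in D1 controls. The D3 libraries had 1.0 and 1.24 CPM with LPS and 0.0, 0.0428 and 0.0835 CPM without. At D21 it had 2.38 and 1.81 CPM with LPS and 0.172, 0.199 and 0.0 CPM in controls. LPS libraries were above controls at each of these ages. The D49 level was 3.66 and 4.03 CPM with LPS and 0.833, 0.325 and 1.35 CPM without, again apart. Ccl7 rose by 4.89 ± 0.73 at D1, 4.49 ± 0.76 at D3, 4.01 ± 0.70 at D21 and 2.20 ± 0.59 at D49 (adjusted p 0.00032, 0.00062, 0.0005 and 0.02). At D7 it had 1.48 and 1.88 CPM with LPS and 0.463 and 0.505 CPM in controls and missed the threshold (1.78 ± 0.69, adjusted p = 0.13). The D7 value passed with GC deviation as a covariate (0.03) and in the 14 libraries within 1 of GC deviation (0.022). The D3 fold rests on 47 counts in 2 LPS libraries against 3 counts in 3 control libraries, a ratio of 25.4 with an exact 95% interval of 8.17 to 127.5 that covers counting error only. The fitted value was 5.27 without D3 control library 3, and that of D1 was 5.60 in the 14 libraries. The D49 call ended without D49 LPS library 1 (2.29) or 2 (2.04), and in the 14 libraries (2.15), which hold 1 library of each D49 group. It also ended without D49 control library 2 (adjusted p = 0.07), in the D49 libraries alone (0.28) and with a replicate block (0.052).

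Ccl12, the third CCR2 ligand of the mouse, had 16 counts over all 24 libraries and at most 4 in any of them. The D1 LPS libraries held 1, 3 and 4 counts, against 1 and 0 in D1 controls, and 16 of the 24 libraries were at 0. No level or fold could be read at this depth. Monocyte markers, 7 genes of which 5 were tested, summed to means of 1737.6, 1049.5, 664.6, 516.7 and 506.1 CPM in LPS groups from D1 to D49, against 1405.8, 682.9, 300.8, 108.7 and 148.7 CPM in controls. Fn1 carried most of these sums (37.0 to 2063.4 CPM), while Ly6c2 reached at most 4.67 and Ccr2 3.56 CPM. The part of monocytes in the Ccl2 and Ccl7 values was not tested.

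Ccl3 and Ccl4, also called MIP-1 alpha and beta, attract macrophages, monocytes and T cells. Per length, in mean FPKM, Ccl4 was the most abundant member with LPS at D1 and Ccl3 at the 4 later ages. The D1 order rests on D1 LPS libraries 2 and 3, with GC deviations of 2.84 and 2.36: in library 1 Ccl3 had 2697.0, Ccl6 2278.6 and Ccl4 1610.3 FPKM. In D3 LPS library 2, Ccl3 and Ccl4 were level at 3067.7 and 3068.6 FPKM. Ccl3 stood at 2065.9, 4031.8 and 3868.7 CPM in D1 LPS libraries and at 446.0 and 882.2 CPM in D1 controls. In the D3 libraries it was 1235.1 and 2349.8 CPM with LPS, against 196.5, 421.9 and 142.3 CPM in controls. LPS libraries lay above controls throughout, with library 1 the lowest LPS library at both ages. At D7, Ccl3 had 1159.0 and 1061.0 CPM with LPS, against 156.9 and 98.5 CPM. The D21 values were 1499.1 and 996.9 CPM with LPS, against 219.9, 120.1 and 111.1 CPM in controls, and at D49 1507.8 and 1001.5 CPM with LPS, against 124.4, 80.3 and 163.1 CPM. Ccl3 rose by 2.32 ± 0.52 at D1 (adjusted p = 0.0096), 2.82 ± 0.48 at D3, 3.12 ± 0.56 at D7, 3.05 ± 0.48 at D21 and 3.36 ± 0.49 at D49 (adjusted p = 0.00012).

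Ccl4 stood at 1062.8, 4901.8 and 4642.3 CPM in D1 LPS libraries and at 94.3 and 399.8 CPM in D1 controls. The D3 libraries held 635.2 and 2025.3 CPM with LPS, against 26.8, 85.3 and 21.8 CPM. Within groups it varied more than Ccl3, and the D1 LPS libraries spanned a range wider than the gap to the controls, though no library overlapped. At D7 Ccl4 had 760.8 and 618.7 CPM with LPS and 26.4 and 17.4 CPM without. At D21 it had 822.4 and 558.5 CPM with LPS, against 20.8, 5.45 and 5.56 CPM, and at D49 696.5 and 388.5 CPM, against 15.0, 6.18 and 10.2 CPM. Ccl4 rose by 3.84 ± 0.90 at D1 (adjusted p = 0.014), 4.90 ± 0.83 at D3, 4.98 ± 0.99 at D7, 6.02 ± 0.87 at D21 and 5.70 ± 0.86 at D49 (adjusted p = 0.00016). Single libraries moved the Ccl4 folds by over 1.5 times: D1 was 5.23 without D1 control library 2 and 3.14 without library 1, D3 was 5.77 without D3 control library 2, 5.50 without D3 LPS library 1 and 3.83 without D3 LPS library 2, and D21 was 6.97 without D21 control library 1. With the covariate, D21 was 5.34 and D49 4.82, and in the 14 libraries D21 was 5.11. The D1 calls of Ccl3 and Ccl4 ended without D1 control library 1 (adjusted p = 0.2 and 0.22) and in the D1 libraries alone (0.083 and 0.15). The D7 call of Ccl4 ended without D7 control library 2 (0.053).

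Ccl5, or RANTES, which acts on CCR1 and CCR3 and is also made by T and NK cells, had the largest fold at D7. It had 162.4, 188.5 and 139.0 CPM in D1 LPS libraries and 8.01 and 9.03 CPM in D1 controls. The D7 libraries held 117.0 and 149.9 CPM with LPS and 1.44 and 0.859 CPM without, and the D49 libraries 90.5 and 82.7 CPM with LPS and 3.07, 0.65 and 2.26 CPM without. The groups were far apart, and no LPS library of any age was below 82.7 CPM. The other ages had, with LPS, 96.6 and 120.1 CPM at D3 and 104.9 and 127.0 CPM at D21, against 1.26 to 2.53 and 0.731 to 2.38 CPM in controls. Ccl5 rose by 4.26 ± 0.53, 5.76 ± 0.50, 6.85 ± 0.63, 6.00 ± 0.51 and 5.43 ± 0.49 in order of age (adjusted p 6.1e-05, 2.4e-07, 6.6e-07, 2e-07 and 7.9e-07). T and NK cell markers were at or near 0, and none of the 8 reached the filter.

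Ccl6 and Ccl9, rodent chemokines that bind CCR1, follow each other in the order of CC chemokine genes on chromosome 11 and had unlike LPS values. Ccl6 was high without LPS: D1 libraries had 4090.1, 3820.2 and 3603.9 CPM with LPS and 4189.1 and 3701.7 CPM in controls. In D7 libraries it had 1026.1 and 874.9 CPM with LPS and 1322.6 and 1214.6 CPM without, and in D49 libraries 1865.6 and 1912.1 CPM with LPS and 2410.7, 3387.7 and 2350.1 CPM without. At D3 it had 1928.5 and 1715.3 CPM with LPS and 2071.7, 2218.7 and 1571.5 CPM without, and at D21 1439.5 and 1238.2 CPM with LPS and 1970.5, 2443.3 and 1536.7 CPM without. The groups overlapped at D1 and D3 and were apart, with LPS lower, at D7, D21 and D49. No LPS difference passed: -0.04 ± 0.22, -0.10 ± 0.22, -0.42 ± 0.24, -0.57 ± 0.22 and -0.52 ± 0.22 in order of age, with intervals of 2 SE from -0.48 to 0.40 at D1 and from -1.01 to -0.13 at D21 (adjusted p 0.11 at D21 and 0.17 at D49). The sign at D1 and D3 turned with RLE size factors (0.0063 and 0.0067). It passed as lower at D21 with a replicate block (-0.67, adjusted p = 0.034), at D21 and D49 with the block and GC deviation as a covariate (-0.60, 0.015 and -0.58, 0.02), and at D7 in the D7 libraries alone (-0.43, 0.038). In controls the ages ordered as D1, D49, D21, D3 and D7, where D49, D21 and D3 overlapped as neighbours.

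Ccl9 rose with LPS at every age but D1. It had 2080.7, 1464.5 and 1548.1 CPM in D1 LPS libraries and 1156.1 and 809.0 CPM in D1 controls, a difference that did not pass (0.79 ± 0.29, adjusted p = 0.15) though the groups were apart. Its D3 values were 1263.2 and 981.2 CPM with LPS, against 502.6, 272.0 and 657.2 CPM in controls. At D49 it had 620.4 and 762.1 CPM with LPS and 251.9, 339.6 and 302.1 CPM without. At D7 it had 569.3 and 507.7 CPM with LPS and 208.8 and 228.1 CPM without, and at D21 493.2 and 473.3 CPM with LPS and 212.3, 227.2 and 254.0 CPM without. LPS libraries lay above controls at all 5 ages, with smaller folds than Ccl2 to Ccl5. Ccl9 rose by 1.23 ± 0.28 at D3, 1.30 ± 0.32 at D7, 1.06 ± 0.28 at D21 and 1.21 ± 0.28 at D49 (adjusted p 0.0084, 0.011, 0.015 and 0.0071). The D1 value passed with GC deviation as a covariate (0.90, adjusted p = 0.0023). It was 0.94 in the 14 libraries, which hold 1 library of each D1 group. The D3 call ended without D3 LPS library 1 (1.04) and in the D3 libraries alone (adjusted p = 0.23). The D7 call ended without D7 control library 1 (1.24), control library 2 (1.37) or LPS library 1 (1.22). The D21 call ended without either D21 LPS library (1.03). The D49 call ended without D49 LPS library 2 (0.96) and in the D49 libraries alone (adjusted p = 0.16).

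Ccl22 and Ccl17, both on chromosome 8, attract CCR4-bearing regulatory and helper T cells. Ccl22 stood at 141.4, 154.5 and 143.3 CPM in D1 LPS libraries and at 23.2 and 27.5 CPM in D1 controls. The D7 libraries had 196.7 and 169.6 CPM with LPS and 22.6 and 19.8 CPM without. LPS and control groups were apart at both ages, as at the others. At D21, Ccl22 had 703.4 and 566.7 CPM with LPS, against 158.6, 123.2 and 140.2 CPM in controls, and at D49 699.4 and 615.3 CPM with LPS, against 227.0, 194.1 and 319.6 CPM. D3 held 111.3 and 120.9 CPM with LPS and 18.5, 27.4 and 10.3 CPM without. D49 controls lay above the LPS libraries of D1 and D3 and overlapped those of D7. LPS raised Ccl22 by 2.53 ± 0.33, 2.63 ± 0.30, 3.11 ± 0.35, 2.17 ± 0.29 and 1.41 ± 0.29 in order of age (adjusted p 8e-05 at D1 and 0.0026 at D49). The D49 call ended in the D49 libraries alone (1.36, adjusted p = 0.097). With LPS the ages ordered as D49, D21, D7, D1 and D3, of which only D49 and D21 overlapped as neighbours.

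Ccl17 was low and scattered, at most 17.8 CPM. It had 2.77, 17.8 and 13.9 CPM in D1 LPS libraries and 2.15 and 11.0 CPM in D1 controls, and 3.91 and 0.902 CPM in D49 LPS libraries and 2.19, 0.00 and 0.00 CPM in D49 controls. It had 1.96 and 12.4 CPM with LPS at D3, against 0.535, 2.14 and 1.09 CPM in controls, 2.51 and 4.21 CPM at D7, against 0.771 and 0.556 CPM, and 2.49 and 1.23 CPM at D21, against 0.972, 0.0 and 0.0625 CPM. The groups overlapped at D1, D3 and D49 and were apart at D7 and D21. Its LPS differences were 0.80 ± 1.29, 2.50 ± 1.29, 2.33 ± 1.53, 2.37 ± 1.43 and 1.64 ± 1.34 and none passed (adjusted p 0.31 to 0.95). It passed with GC deviation as a covariate at D3 (2.01, adjusted p = 0.004) and D7 (1.69, 0.046), at D3 also with block and covariate (2.14, 0.0062), and at D7 in the 14 libraries (2.34, 0.0097) and in the D7 libraries alone (2.32, 0.013). Without the filter it passed at D3, D7 and D21 (2.63, 2.35 and 2.39, with adjusted p 0.00013, 0.011 and 0.0026), and without D49 control library 1 at D49 (8.51, 0.024). In that last run the D49 controls left had 0.00 CPM, which set the size of the fold. Dendritic cell markers, 7 genes of which 3 were tested, summed to means of 21.6, 7.4, 17.5, 43.9 and 24.2 CPM in LPS groups from D1 to D49, against 7.36, 3.48, 6.99, 10.1 and 13.7 CPM in controls; Zbtb46 led with 0.899 to 38.1 CPM, and Cd209a was at 0 in 18 of 24 libraries. Their part in the Ccl22 and Ccl17 values was not tested.

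**Figure D3:**
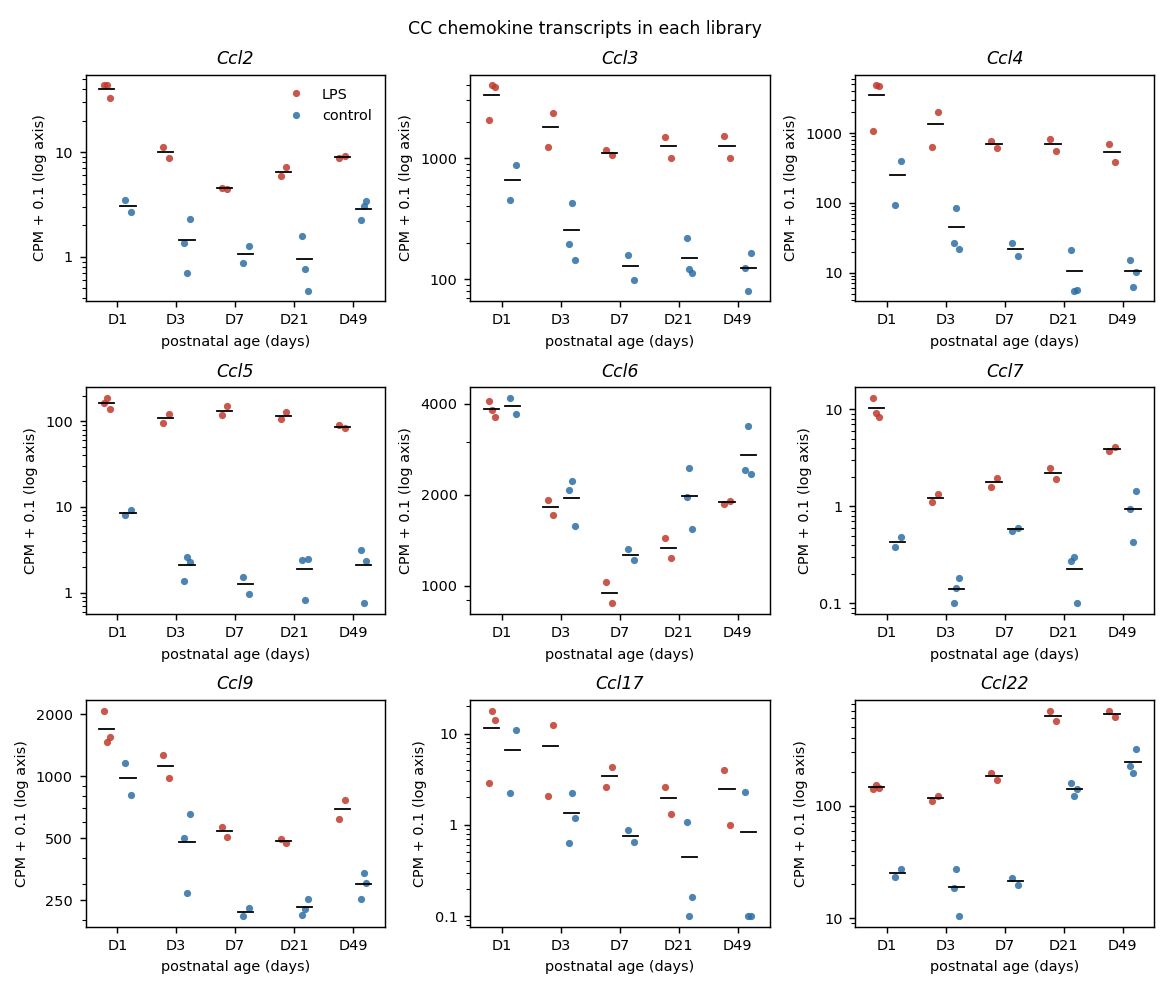
Each panel gives 1 member in CPM + 0.1 on a log axis against age, with a point per library (LPS left of control) and a black line at the group mean. Ccl2 to Ccl5 with LPS lie above control at each age; Ccl22 lies at 194.1 to 319.6 CPM in D49 controls and at 23.2 and 27.5 CPM in D1 controls.

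Between D49 and D1, control macrophages had 1 member higher and 4 lower out of 9 tested. Ccl22 rose, and Ccl3, Ccl4, Ccl5 and Ccl9 fell. Among all genes tested, 21% rose and 21.9% fell. Ccl22 rose by 3.28 ± 0.34 (adjusted p = 3.7e-06). Ccl4 fell by 4.56 ± 0.82 (adjusted p = 0.00077), Ccl3 by 2.44 ± 0.47 (0.0014), Ccl5 by 2.08 ± 0.46 (0.0034) and Ccl9 by 1.72 ± 0.28 (0.00036). Ccl2 (-0.10 ± 0.46), Ccl6 (-0.54 ± 0.22, adjusted p = 0.054), Ccl7 (1.29 ± 0.66) and Ccl17 (-3.10 ± 1.34) did not pass. Ccl6 passed without D49 control library 2 (-0.73, adjusted p = 0.024), and was -0.85 in the 14 libraries, with 1 library per group. Ccl17 passed by DESeq2 (-3.26, adjusted p = 0.03) and without the filter (-3.26, 2.8e-07), and its sign turned with the GC covariate (0.29). It was -3.84 without D1 control library 1. Without D49 control library 1 it passed (-9.97, 0.0026), but the D49 controls left had 0 counts, which set the size of that fold. Their GC deviations were -2.08 and -3.17. Over all 5 ages, 8 of 9 members differed in controls, where 34.7% of all genes did. Ccl17 did not pass that test by edgeR, and passed it by DESeq2 (adjusted p = 0.014), without the filter (1.2e-14) and without D21 control library 1 (0.027) or D49 control library 1 (0.005). Without those libraries, the controls left at that age had at most 0.0625 CPM of Ccl17.

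With LPS, D49 minus D1 gave 1 member higher and 5 lower. Ccl22 rose by 2.16 ± 0.29 (adjusted p = 5.1e-05). Ccl2 fell by 2.17 ± 0.48 (0.0037), Ccl4 by 2.71 ± 0.85 (0.025), Ccl3 by 1.41 ± 0.50 (0.04), Ccl9 by 1.30 ± 0.30 (0.0045) and Ccl6 by 1.02 ± 0.23 (0.0039). Ccl5 was -0.92 ± 0.45 (0.11), Ccl7 -1.40 ± 0.60 (0.077) and Ccl17 -2.26 ± 1.40 (0.21), and these did not pass. Ccl7 passed as lower by DESeq2 (-1.43, adjusted p = 0.019), and was -1.96 in the 14 libraries, with 1 library per group. Ccl17 passed without the filter (-2.29, 0.0014), while its sign turned with the covariate (1.37) and in the 14 libraries (0.37). Among all genes tested, 16.6% rose and 14.1% fell (1954 and 1666 genes), and DESeq2 split its calls into 1969 higher and 2690 lower. Over the 5 ages, 6 of 9 members differed with LPS (Ccl2, Ccl4, Ccl6, Ccl7, Ccl9 and Ccl22), where 16.7% of all genes did. The LPS comparisons at D1 and D49 share their libraries with both age comparisons.

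Ccl22 passed in both age comparisons under each alternative run. With GC deviation as a covariate, the LPS differences of Ccl3 and Ccl4 were -0.46 and -0.45 and did not pass (adjusted p = 0.47 and 0.52). In the 14 libraries, with 1 library per group, they were -0.58 and -0.73 and did not pass. Leaving out D1 LPS library 2 or 3, or either D49 LPS library, also ended both calls (adjusted p 0.073 to 0.25 for Ccl3 and 0.062 to 0.2 for Ccl4), and the replicate block ended that of Ccl3 (0.051). The LPS call of Ccl6 ended without D49 LPS library 1 (0.053) or 2 (0.055), and that of Ccl9 without D49 LPS library 1 (0.073). In controls, Ccl3 did not pass with the covariate (-1.17, adjusted p = 0.084) or without D1 control library 2 (-1.86). Ccl4 passed at -1.78 (0.011) with the covariate, and was -5.26 and -3.17 without D1 control library 1 and 2. Ccl9 passed at -2.37 with the covariate. In the 14 libraries, with 1 control library at D1 and 1 at D49, Ccl4 was -2.71 and Ccl5 -1.44. Over the 5 ages with LPS, the call of Ccl4 (adjusted p = 0.048) ended with the covariate (0.48), in the 14 libraries (0.3), with the block (0.084), without D1 LPS library 2 or 3 and without any LPS library of D7, D21 or D49 (0.055 to 0.19). In the same test, Ccl3 passed by DESeq2 (0.0073), without the filter (1.6e-06) and without D1 LPS library 1 (0.038), and Ccl17 without the filter (2.6e-05). Over the 5 ages in controls, the calls of Ccl2 and Ccl7 ended in the 14 libraries (0.073 and 0.052) and that of Ccl3 without D1 control library 2 (0.057).

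**Figure D4:**
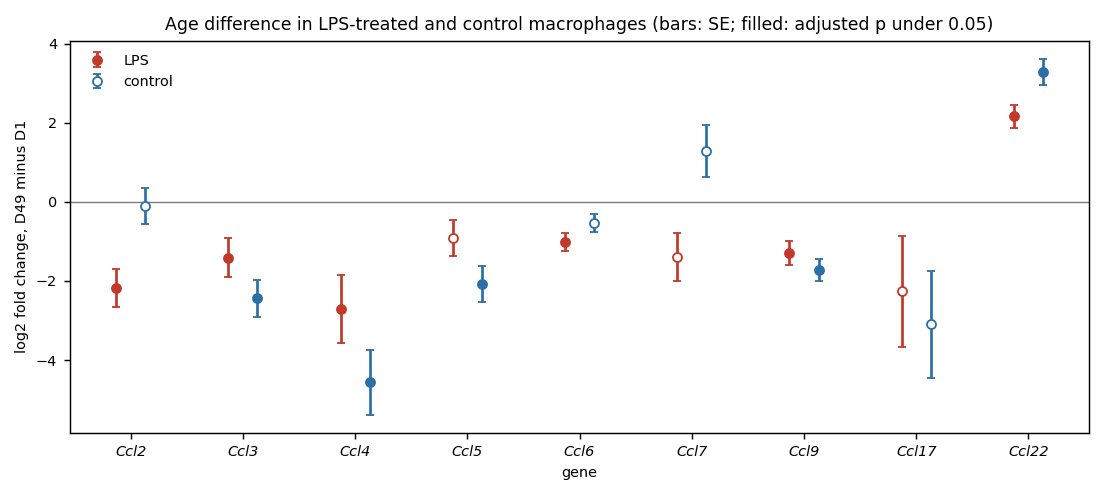
The y axis gives the log2 fold change, D49 minus D1, of 9 members in LPS-treated (left) and control (right) macrophages, with bars of 1 SE; filled points passed at an adjusted p under 0.05. Ccl22 lies above 0 in both, at 2.16 and 3.28; Ccl3, Ccl4 and Ccl9 lie below 0 in both.

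No member passed the test of the D49 against D1 difference in LPS response by edgeR, where 0.204% of all genes did. By unadjusted p under 0.05 there were 3, and DESeq2 called 0. They were Ccl7 (-2.69 ± 0.89, adjusted p = 0.41), Ccl2 (-2.07 ± 0.66, 0.38) and Ccl22 (-1.12 ± 0.42, 0.62), all with the smaller response at D49. Ccl2 passed with GC deviation as a covariate (-1.99, adjusted p = 0.039), and Ccl4 without the filter (1.99, 0.0043). Of any difference among the 5 ages in LPS response, edgeR called 0 members and 3 at unadjusted p under 0.05 (Ccl5, Ccl7 and Ccl22), where 0.595% of all genes passed, and DESeq2 called 1, Ccl7 (adjusted p = 0.043). With GC deviation as a covariate Ccl5 (0.017) and Ccl22 (0.043) passed that test, Ccl5 also with block and covariate (0.032), and Ccl4 and Ccl5 passed without the filter (0.00066 and 0.0057).

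Spread within groups followed the GC deviation of the library for some members and not for others. The Pearson correlation over 24 libraries between a member's log2(CPM + 1) and GC deviation, each less its group mean, was 0.91 for Ccl17, 0.88 for Ccl4, 0.70 for Ccl3 and -0.76 for Ccl9. The points share libraries and groups, and the values are a description. In the tested members, the sign of the correlation went with the member's own GC content, though the size did not follow its order. It was positive in those with 46.2% GC or more and negative in those with 45.1% or less, a split read from these same values. GC deviation is itself the gap between GC-rich and GC-poor genes, so such a sign is partly built in. The longest transcripts of Ccl5, Ccl17, Ccl22 and Ccl4 had 52.8%, 51.9%, 50.9% and 49.2% GC with correlations of 0.47, 0.91, 0.32 and 0.88. Those of Ccl3, Ccl6, Ccl2 and Ccl7 had 46.2%, 45.1%, 44.3% and 42.9% with 0.70, -0.10, -0.36 and -0.26. Ccl9 and Ccl12 both had 42.1%, with -0.76 and 0.43, the value of Ccl12 from 16 counts.

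**Figure D5:**
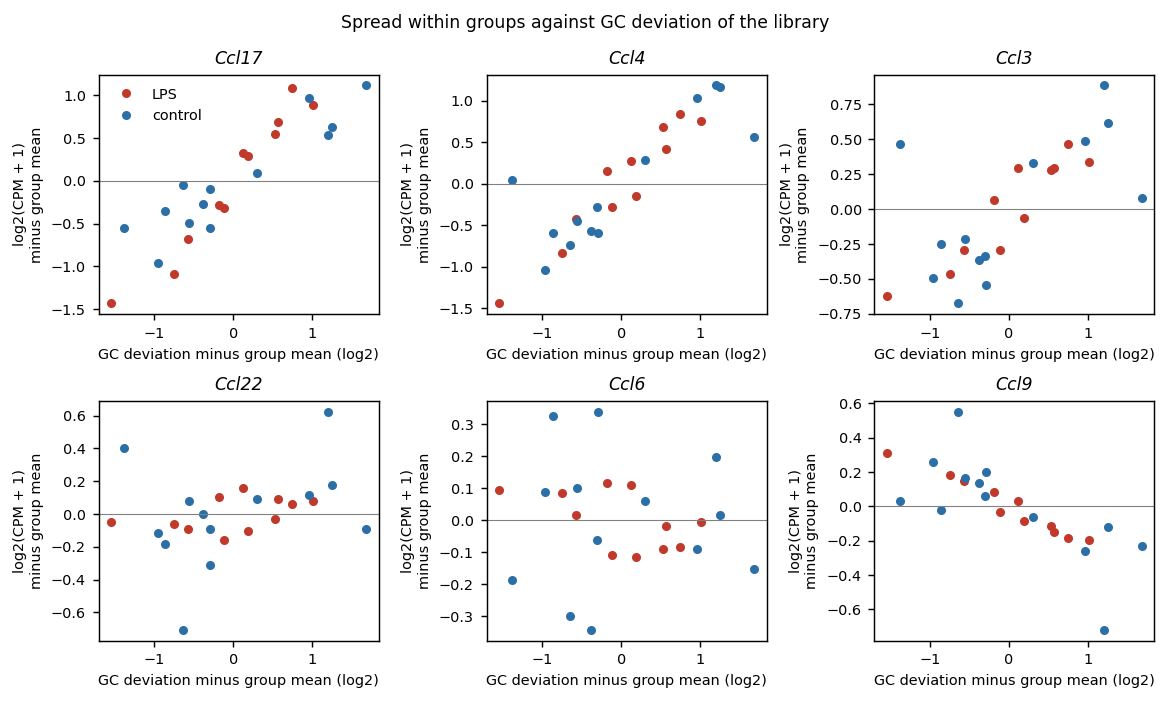
Each panel gives 1 member: the x axis is the library's GC deviation less its group mean (log2), the y axis log2(CPM + 1) less its group mean, with a point per library, LPS and control by colour. Ccl17, Ccl4 and Ccl3 follow the x axis upward (r of 0.91, 0.88 and 0.70), Ccl9 downward (-0.76), and Ccl22 and Ccl6 show no such line.

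Across the 24 libraries, members fell into those that moved together and those that stood apart. Ccl3 and Ccl4 had a Pearson correlation of 0.99 on log2(CPM + 1), Ccl3 and Ccl5 0.94, Ccl4 and Ccl5 0.94, and Ccl2 and Ccl7 0.93. Ccl6 and Ccl22 had -0.11, and Ccl22 had 0.06 with Ccl9. The 2 genes most alike by that measure were Cxcl10 and Traf1 for Ccl3 (0.975 and 0.971), Traf1 and Cd14 for Ccl4 (0.988 and 0.983), and Gbp3 and Agrn for Ccl5 (0.981 and 0.98). They were Mlkl and Ifit3b for Ccl2 (0.939 and 0.938), Edn1 and Trim30c for Ccl7 (0.909 and 0.895), and Wfdc17 and C3ar1 for Ccl9 (0.933 and 0.922). Serpinb9b and Mmp13 were most alike to Ccl22 (0.959 and 0.955), Prdx5 and Ifi35 to Ccl17 (0.962 and 0.96) and Adnp2 and Itpa to Ccl6 (0.825 and 0.804). Libraries of 1 group, age and treatment are shared by all these points, so the correlations are a description.

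Other genes of the pathway were read from lists. Of 12 other CC, XC and CX3C chemokines 1 was tested, Cx3cl1, and it did not pass in any LPS comparison. Of the chemokine receptors, Ccr1, Ccr7 and Ccrl2 are described. Ccrl2, an atypical receptor that holds chemerin at the cell surface, rose with LPS at all 5 ages, by 2.15 ± 0.40, 2.31 ± 0.37, 2.79 ± 0.43, 2.76 ± 0.37 and 2.79 ± 0.37. Its level averaged 403.9 ± 88.2 CPM with LPS and 58.5 ± 27.4 CPM in controls at D49 (SD, n = 2 and 3). Ccr7 rose at D21 (1.93 ± 0.63, adjusted p = 0.049) and was lower at D49 than at D1 with LPS (-2.61 ± 0.69, 0.011). In controls, D49 minus D1 was 0.92 ± 0.30 for Ccr1, a receptor of Ccl3, Ccl5, Ccl6 and Ccl9, which rose, and -1.03 ± 0.36 for Ccrl2, which fell.

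Of 14 LPS receptor and adaptor genes 13 were tested. Cd14, the LPS co-receptor, rose at D3, D7, D21 and D49, by 1.85 ± 0.43 to 2.90 ± 0.44, and Tlr4 fell at D7 (-1.57 ± 0.37), D21 (-1.56 ± 0.35) and D49 (-1.24 ± 0.34). No other list member passed in LPS comparisons except Ticam2, which was lower at D3 (-1.01 ± 0.30). In D49 against D1 controls, 2 were higher (Ticam2, 1.47 ± 0.30, and Ly96, 1.21 ± 0.41) and 3 lower (Myd88, -2.55 ± 0.65, Irf3, -2.04 ± 0.69, and Cd14, -1.81 ± 0.43) of the 13, where 21% of all genes tested rose and 21.9% fell. With LPS, 1 was higher (Ticam2, 1.25 ± 0.28) and 3 lower (Irf3, -2.54 ± 0.77, Myd88, -2.17 ± 0.70, and Irak4, -0.93 ± 0.28), where 16.6% of all genes rose and 14.1% fell.

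Of 9 genes for enzymes, proteoglycans and growth factors that cleave, bind or accompany CC chemokines 5 were tested. Sdc4, a heparan sulfate proteoglycan, rose with LPS at all 5 ages (2.65 ± 0.31, 2.94 ± 0.28, 2.98 ± 0.33, 3.44 ± 0.30 and 2.41 ± 0.29) and Sdc1 at D3 and D7 (1.62 ± 0.36 and 1.49 ± 0.41). Csf1 rose at D1 (1.53 ± 0.44), and Mmp12, a macrophage elastase, was lower with LPS at D49 (-1.07 ± 0.33). In controls Mmp12 was higher at D49 than at D1 (2.50 ± 0.35), and Sdc1 (-3.37 ± 0.38), Sdc4 (-2.57 ± 0.29) and Mmp14 (-2.53 ± 0.61) were lower. With LPS the same 4 genes passed in these directions, and Csf1 was also lower (-3.16 ± 0.49). So 1 of the 5 rose and 3 fell in controls, where 21% and 21.9% of all genes did, and 1 rose and 4 fell with LPS, where 16.6% and 14.1% did.

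The spans of Ccl2 and the antisense gene Gm17268, and of Ccl6 and E230016K23Rik, overlap in the annotation. Overlap of their exons was not checked, and whether counting used the strand is not stated. Any reads from shared sequence therefore cannot be told apart.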

How the data were processed

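Bulk RNA-seq libraries from pooled alveolar macrophages were compared by age and LPS. The deposited table holds whole-number counts per Ensembl gene with exonic lengths, per the file headers. The submitters' processing notes name STAR, DESeq2 and GRCm39. Tool versions, the counting tool and its gene models remain not given in the sources used here. Labels describe a library kit only for samples above a stated RNA yield. Symbols came from a table of names (52073 of 56691 genes). Printed FPKM values are TMM-scaled CPM over exonic length. The FPKM of the filter used counts, lengths and library totals without TMM. Tests used edgeR 4.0.16 (R 4.3.3, limma 3.58.1), a mean for each of 10 groups over 24 libraries, TMM scaling and a filter of 1 FPKM in 2 libraries (11774 genes). The SE of a log2 fold change is its size over the square root of F. DESeq2 1.42.0, RLE factors, no filter, GC deviation (gene GC from GENCODE M21 transcripts, 97.2% of tested genes) as a covariate, the 14 libraries within 1, single ages alone, a replicate block and leaving out each library were alternatives. All 10 members were named; members of 4 further lists were named where they passed, at most 4 per comparison by size, and the 2 genes most alike to each member by Pearson correlation. The members and lists were chosen with earlier results of these data known. A looser NF-kB motif was dropped after its matches were seen. No 2 libraries were copies (smallest chi-square per degree of freedom 15.1). The edgeR fit was tested on simulated counts for the LPS comparison at D49 only. No GC deviation, age differences or shared replicate sources were put into those counts, so that test does not cover them. Some listed genes other than the 10 members are not reported here.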

Additional observations from a re-analysis of the deposited data

How the results depend on the processing

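Counts of members that passed were within 1.5 times of those reported under most alternatives; the causes of the changes were not tested. Leaving out single libraries gave 4 to 6 members for LPS at D1, then 6 to 7, 3 to 5, 6 to 7 and 4 to 8 for the later ages; for D49 against D1, 2 to 6 with LPS and 4 to 6 in controls, and 0 for the difference in LPS response. For any age difference they gave 5 to 7 with LPS, 7 to 9 in controls and 0 in LPS response. The lowest D7 count (3) came without D7 control library 2, and those of the LPS age comparison without D49 LPS library 1 (2) or 2 (3). The D49 libraries alone gave 3 at D49. For the difference in response from D1 to D49, the GC covariate gave 1 and no filter 1; for any age, DESeq2 gave 1, the covariate 2, no filter 2, and block with covariate 1. Ccl12 entered only without the filter.

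The labels do not say that a replicate number marks a shared source, and libraries were not treated as paired. All 10 same-number pairs had a positive correlation of deviations from the group means, from 0.07 to 0.83, and 7 of them were over 0.1. Of the 10 LPS libraries with a control of their own number, 8 correlated best with it, a hint from the data and not from the design. In a group of 2 libraries the deviations mirror each other, so these pairs are not separate observations. With the replicate block, 6, 7, 6, 8 and 6 members passed for LPS from D1 to D49, 5 and 5 for D49 against D1 with LPS and in controls, and 0 for their difference; 5, 8 and 0 for any age with LPS, in controls and in response.

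Directions turned in Ccl6, Ccl2 and Ccl17 where the result did not pass. Ccl6 at D1 was 0.058 (14 libraries), 0.0063 (DESeq2 and RLE), 0.079 (block), 0.13 (block and covariate), and -0.13 to 0.052 without single libraries; at D3 it was 0.17 (14 libraries), 0.0067 (DESeq2 and RLE) and 0.0035 (no filter). Ccl2 in controls, D49 against D1, was -0.28 to 0.10 without single libraries. Ccl17 was 0.29 (covariate) and 0.33 (block and covariate) in controls, 0.37 (14 libraries), 1.37 and 1.71 with LPS, and -0.77 to 7.71 for the difference in response without single libraries. The 7.71 came without D49 control library 1, where the D49 controls left held 0 counts of Ccl17.

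Genes that passed over the whole table numbered 667 for LPS at D1 (158 in that age alone, 1440 with the covariate, 1399 with block and covariate); 825 for D3 (442 alone, 1557 in the 14 libraries, 1746 and 1712); 1132 for D7 (3073 alone, 3327 in the 14, 2080 and 2111); 1590 for D21 (2452 in the 14, 2505 and 2534); and 1203 for D49 (305 alone, 2289 and 2232). For D49 against D1 they were 3620 with LPS (1937 in the 14 libraries, 1786, 1710) and 5042 in controls (1482, 1229, 1230); DESeq2 gave 1969 higher and 2690 lower with LPS, against 1954 and 1666. The difference in response gave 24 (97 by DESeq2, 191, 109 without filter, 127). For any age, 1971 passed with LPS (3112 by DESeq2, 4274 without filter), 4080 in controls (1822, 2017, 1962) and 70 in response (192 by DESeq2, 304, 312, 46 with the block, 265). With single libraries left out, the lowest and highest counts were 277 and 543 (D1), 414 and 892 (D3), 603 and 629 (D7), 683 and 1614 (D21), 593 and 2049 (D49), 775 and 4510 for age with LPS, 674 and 6505 in controls, 12 and 38 for the difference, and 1133 and 2243, 2190 and 5611, and 36 and 89 for any age with LPS, in controls and in response.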
